A study of Mus musculus with 6 samples.

Results

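The interleukin-12 (IL-12) family and interleukin-15 (IL-15) were examined in BV2 cells, an immortalised line of mouse microglia, with and without overexpression of PGC-1α. The members were chosen as 7 genes, Il12a, Il12b, Il23a, Il27, Ebi3, Il15 and Il15ra, out of 23462 mouse genes that the probes of the array could be matched to through their accessions. All 7 had a probe, and every probe was kept, which gave 10 probes. Il15 had 2 probes, Il15ra had 3, and each of the other genes had 1. The comparison asked how these cytokine transcripts differed between LPS-treated cells labelled as overexpressing PGC-1α, a coactivator of mitochondrial gene transcription, and LPS-treated cells labelled as without that overexpression.

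RNA from 6 samples was hybridised to 6 Agilent mouse arrays. Of these, 3 were BV2 cells without PGC-1α overexpression (control) and 3 were BV2 cells with PGC-1α overexpression, and all 6 carried the label LPS, the bacterial lipopolysaccharide that activates microglia. In the cell culture methods of the study, LPS was given at 500 ng/ml for 6 h, and PGC-1α came from a lentivirus driven by a ubiquitin promoter, with puromycin selection at 2 µg/ml 72 h after infection. Those methods also mention a negative control lentivirus. They do not name the array samples, and the labels do not say whether the controls carried such a virus. No array came from cells without LPS, so induction by LPS itself could not be measured. The labels number the samples of a group as replicates without saying that they were separate cultures, so p-values measure the spread between these samples, which may be technical.

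The cytokines of the IL-12 family are pairs of an alpha chain and a beta chain. The alpha chain p35 (Il12a) joins p40 (Il12b) to make IL-12, p19 (Il23a) joins the same p40 to make IL-23, p28 (Il27) joins EBI3 (Ebi3) to make IL-27, and p35 joins EBI3 to make IL-35. IL-12 drives interferon-γ production by T cells and natural killer cells, IL-23 sustains T cells that make IL-17, and IL-27 and IL-35 are known mainly for restraining T-cell responses. IL-15 maintains natural killer and memory T cells, and a producing cell usually displays it on its surface bound to the IL-15 receptor alpha chain (Il15ra). Activated microglia and macrophages are known sources of these cytokines.

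The promoters of Il15ra, Il12b and Ebi3 are shown first. The probes of Il15ra disagreed in direction, Il12b had the largest change of the cytokine chains and Ebi3 was among those that did not pass the test. For Il23a, Il27 and Il15 no window was available, so their promoters were not searched. Each window runs from 250 bases before to 50 bases after a transcription start in the RefSeq annotation of the mouse genome build GRCm38.p6. All of these windows lie on the plus strand. Motif matches are in capitals and the remaining bases in lower case, 5′ to 3′. RefSeq gave Il15ra 2 start sites, here with the window at chr2:11705043-11705342 and the window at chr2:11705462-11705761. The Il12b window is chr11:44399813-44400112 and the Ebi3 window is chr17:55952373-55952672.
Il15ra, upstream window: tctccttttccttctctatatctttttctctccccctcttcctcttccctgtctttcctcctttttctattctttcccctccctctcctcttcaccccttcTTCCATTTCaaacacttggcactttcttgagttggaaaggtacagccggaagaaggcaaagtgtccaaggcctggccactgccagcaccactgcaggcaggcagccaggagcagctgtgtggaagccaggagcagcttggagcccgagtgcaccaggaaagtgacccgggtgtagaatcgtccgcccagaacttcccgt
Il15ra, downstream window: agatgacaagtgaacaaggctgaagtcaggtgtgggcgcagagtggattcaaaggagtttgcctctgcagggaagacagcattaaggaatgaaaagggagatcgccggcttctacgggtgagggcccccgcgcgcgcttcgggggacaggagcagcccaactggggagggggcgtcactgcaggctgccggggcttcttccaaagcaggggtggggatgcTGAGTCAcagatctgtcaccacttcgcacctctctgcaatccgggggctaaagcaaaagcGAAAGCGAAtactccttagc
Il12b: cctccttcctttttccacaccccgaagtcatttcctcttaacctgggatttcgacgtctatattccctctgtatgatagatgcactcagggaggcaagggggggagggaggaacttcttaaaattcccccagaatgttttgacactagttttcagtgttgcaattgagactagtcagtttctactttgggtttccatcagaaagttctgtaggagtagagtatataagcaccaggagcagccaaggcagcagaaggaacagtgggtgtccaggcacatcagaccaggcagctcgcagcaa
Ebi3: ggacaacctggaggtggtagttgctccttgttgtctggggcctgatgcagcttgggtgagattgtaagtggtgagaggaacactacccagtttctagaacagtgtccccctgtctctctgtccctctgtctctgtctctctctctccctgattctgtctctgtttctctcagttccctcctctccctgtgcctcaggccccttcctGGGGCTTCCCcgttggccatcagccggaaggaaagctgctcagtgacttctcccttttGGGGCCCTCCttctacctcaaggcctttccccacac

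5 motifs were searched on both strands, and no match overlapped another in these windows. The interferon response element half-pair GAAANNGAA was found on the minus strand in the upstream Il15ra window, with its match starting at position -149 relative to the transcription start (TTCCATTTC as read on the plus strand). In the downstream Il15ra window GAAANNGAA was found at position 31, within the transcript, and the AP-1 site TGANTCA at position -30. The Ebi3 window held the κB consensus, the binding sequence of NF-κB, at positions -44 and 15. The Il12b window and both Il12a windows held none of the 5 motifs. Among 32851 promoter windows of the same length, 8.56% held GAAANNGAA, 7.81% held TGANTCA, 5.80% held the κB consensus, 13.6% held the TATA box letters TATAAA and 1.28% held the ERR response element TNAAGGTCA. These are matches of letters in short windows and were not tested as binding sites.

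Levels are given as log2 intensity minus the 75th percentile of the array, so that 0 is that percentile and negative levels lie below it, and a change is the overexpression mean minus the control mean on that scale. The overexpression arrays were dimmer before scaling, with a 75th percentile intensity of 855.8 to 1268.1 against 1617.0 to 1892.7 on the control arrays, and scaling left the median change over all 38918 tested probes at 0.25. From 41122 to 45165 of 59305 spots per array were well above background, and no spot was saturated. The targeted gene, Ppargc1a, gave no firm check of the labels. Its probes were well above background on 2 control arrays and on 2 and 1 overexpression arrays, and neither could be tested. The intensities of probe 1 were 22, 20 and 9 in the 3 controls, against 22, 22 and 21 with PGC-1α overexpression. For probe 2 they were 14, 20 and 14 against 9, 12 and 15. Before scaling the groups overlapped in both probes. After scaling they overlapped in probe 2, while probe 1 was higher on the overexpression arrays. The arrays were therefore named as labelled. The arrays lay on 2 slides, with 2 arrays of each group on slide 1 and 1 of each on slide 2.

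All 10 member probes were tested. After scaling, 4 probes were higher on the overexpression arrays at an adjusted p under 0.05 (limma, Benjamini-Hochberg), those of Il12a, Il12b and Il23a and the brightest probe of Il15ra, and the other 2 Il15ra probes were lower. The remaining 4, for Il27, Ebi3 and Il15, did not pass. Over all tested probes 35.4% were called higher and 18.4% lower, so 4 and 2 of 10 were near the background. Among the 9 members well above background on all 6 arrays, which leaves out Il12b, 3 were called higher and 2 lower. The shares of all probes under that filter are not given here. The median change of the 10 probes was 0.30. With quantile normalization 3 members were called higher and 2 lower, where 22.9% and 20.6% of all probes were, and the members' median was 0.21 against 0.05 for all probes. In 4 members the lowest overexpression array lay above the highest control array, and in 2 the order was the opposite. Over all probes with a value on every array these shares were 41.4% and 22.2%.

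**Figure D1:**
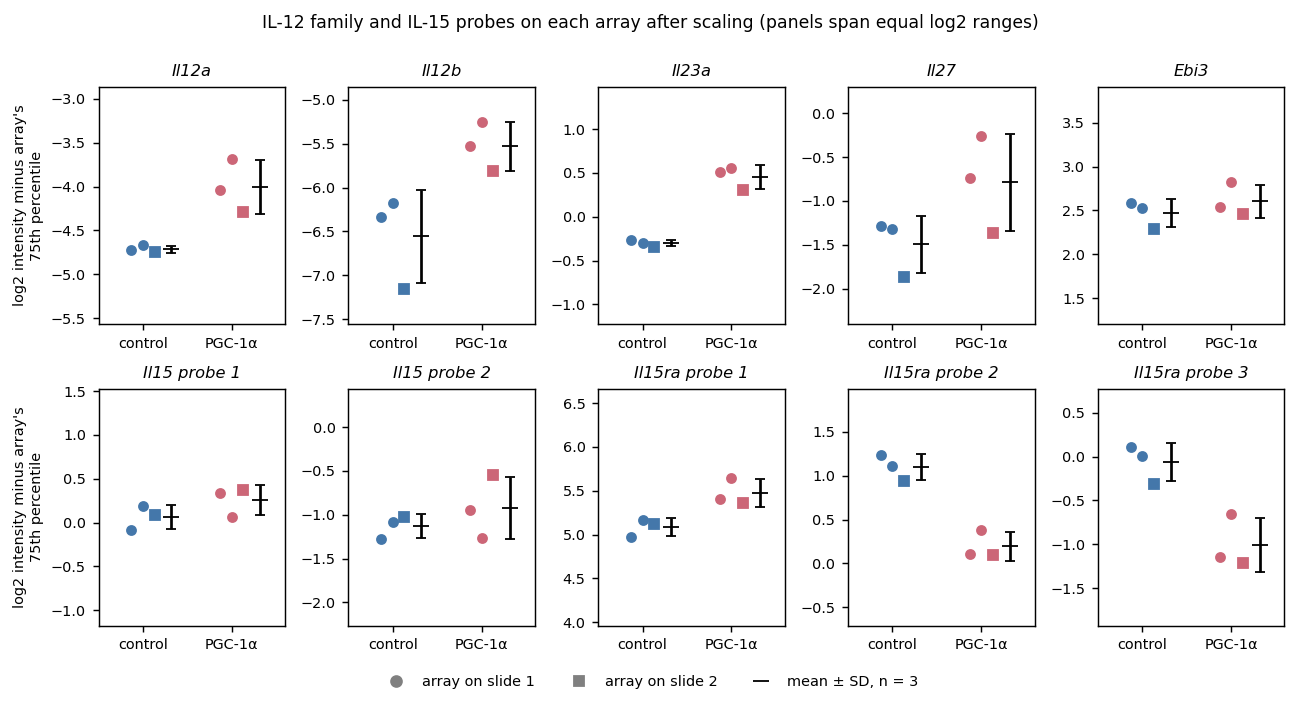
Each panel shows 1 probe, with the 3 control arrays in blue and the 3 PGC-1α overexpression arrays in red on the y axis of log2 intensity minus the array's 75th percentile; squares mark the arrays of slide 2, and black bars give the mean ± SD (n = 3). The groups are apart for Il12a, Il12b, Il23a and all 3 Il15ra probes, with probes 2 and 3 of Il15ra lower on the overexpression arrays and the other 4 higher.

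The chains of IL-12 and IL-23 were the cytokine chains past the test. Il23a, the p19 chain, stood at -0.27, -0.30 and -0.34 in the 3 controls, against 0.51, 0.56 and 0.30 with PGC-1α overexpression. All 3 overexpression values lay above all 3 control values. Il23a rose by 0.76 (standard error 0.13, limma adjusted p = 0.00325), a 1.69-fold higher scaled intensity, from a mean of -0.30 ± 0.04 to 0.46 ± 0.14 (SD, n = 3). The change was 0.82 within slide 1 and 0.64 between the single arrays of slide 2.

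Il12b, the p40 chain that IL-12 and IL-23 share, was near the floor of the array. Its levels were -6.33, -6.17 and -7.16 in the 3 controls, against -5.53, -5.25 and -5.81 with PGC-1α overexpression, and it was well above background on 2 of 3 control arrays and on all 3 overexpression arrays. The third control array was the lowest of the 6, and the groups did not overlap. Il12b thus entered the test through the overexpression group alone, where it was higher, and it was not tested when all 6 arrays had to be well above background. The change was 1.03 (standard error 0.27, limma adjusted p = 0.0156; 0.0368 with no filter on dim probes), from -6.56 ± 0.53 to -5.53 ± 0.28 (SD, n = 3). With normexp background correction it was 0.62, against 0.73 for Il23a. Normexp together with quantile normalization gave 0.15, no longer past the test (adjusted p = 0.234). Leaving out the third control array lowered the change of Il12b to 0.72, against 0.74 for Il23a, so its rank as the largest was not firm. Without the second overexpression array it was 0.89, at the edge of the test (limma adjusted p = 0.0499).

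Il12a, the p35 chain, was also dim but was well above background on all 6 arrays. It was -4.72, -4.67 and -4.75 in the 3 controls, against -4.04, -3.68 and -4.29 with PGC-1α overexpression. The control arrays differed little among themselves, and every overexpression array lay above them. Il12a rose by 0.71 (standard error 0.17, limma adjusted p = 0.0113), from -4.71 ± 0.04 to -4.00 ± 0.31 (SD, n = 3). With normexp and quantile normalization together the change was 0.24 (adjusted p = 0.101).

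Before scaling, these differences were not present as brighter spots. The intensities of Il23a were 1344, 1323 and 1497 in the 3 controls, against 1653, 1261 and 1560 with PGC-1α overexpression. For Il12a they were 61, 64 and 71 against 70, 67 and 65. For Il12b they were 20, 23 and 13 against 25, 23 and 23. The groups overlapped in all 3 genes, so what was higher was the level relative to the rest of the array. Without scaling the changes were 0.10, 0.05 and 0.36 for Il23a, Il12a and Il12b, and none passed the test (limma adjusted p = 0.682, 0.827 and 0.232). No member had higher intensities on all overexpression arrays before scaling, and 3 had lower ones, while over all probes 6.79% were higher and 48.7% lower in this sense.

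**Figure D2:**
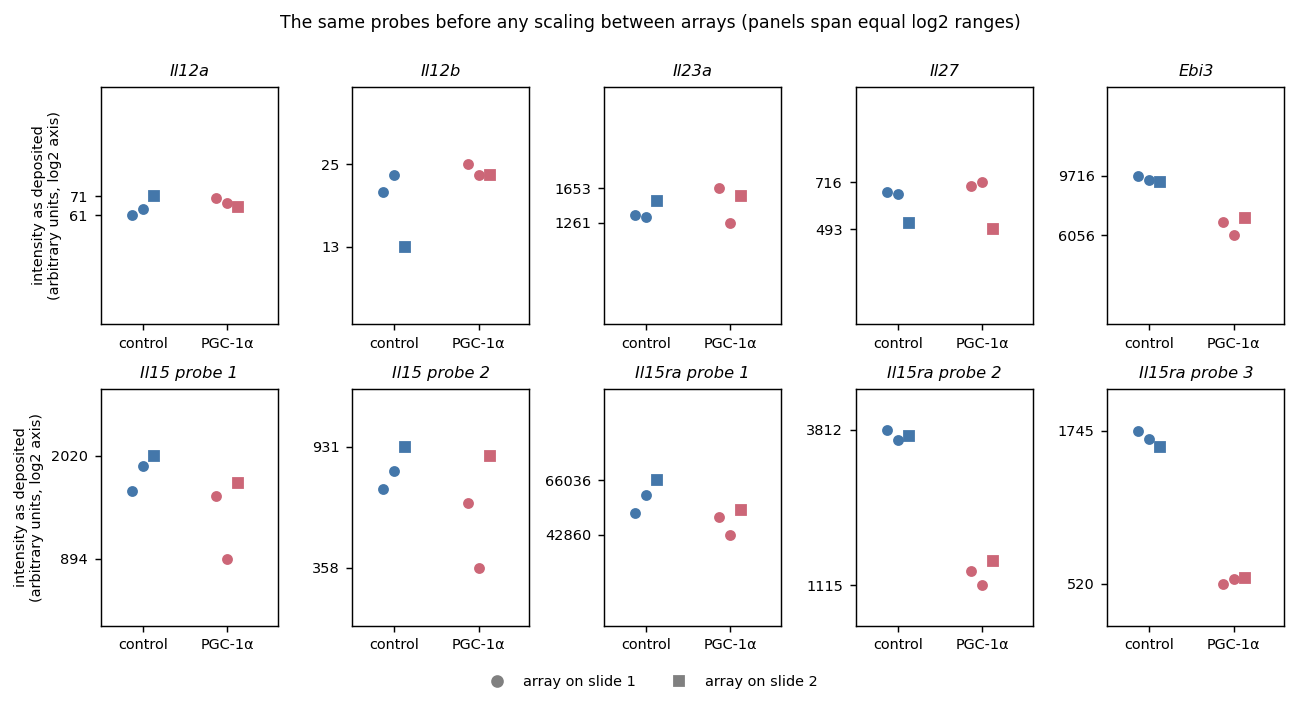
The same probes are shown as the deposited intensity on a log2 axis, with the lowest and highest value marked, control arrays in blue, overexpression arrays in red and slide 2 as squares. The intensities of Il12a, Il12b, Il23a and Il27 overlap between the groups, and those of Ebi3 and of probes 2 and 3 of Il15ra are lower on all 3 overexpression arrays.

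The chains of IL-27 did not pass the test. Il27, the p28 chain, was -1.29, -1.32 and -1.87 in the 3 controls, against -0.74, -0.26 and -1.36 with PGC-1α overexpression. On each slide the overexpression arrays were the higher ones, and across slides the groups overlapped. The change was 0.71 (standard error 0.29, 95% interval 0.04 to 1.38, limma adjusted p = 0.0687), as large as that of Il12a but with a wider spread. With the slide as a block the same change passed the test (adjusted p = 0.00711), and it was 0.81 within slide 1 (adjusted p = 0.0243) and 0.51 on slide 2. Leaving out the third overexpression array raised it to 1.00 (adjusted p = 0.0132), while leaving out the second lowered it to 0.44 (adjusted p = 0.188) and leaving out the third control array to 0.52 (adjusted p = 0.212).

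Ebi3, the partner chain of p28 and of p35, was bright on every array. Its levels were 2.59, 2.53 and 2.29 in the 3 controls, against 2.54, 2.82 and 2.46 with PGC-1α overexpression. The groups overlapped, and the change of 0.14 (standard error 0.16, 95% interval -0.22 to 0.50) did not pass the test (limma adjusted p = 0.474). With quantile normalization it was -0.20 (adjusted p = 0.260). The intensities before scaling were 9716, 9426 and 9252 in the 3 controls, against 6745, 6056 and 6966 with PGC-1α overexpression, and without scaling the change was -0.52 (adjusted p = 0.0241).

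In the difference between 2 probes of the same array, the constant subtracted from that array cancels, while quantile normalization and background correction can still move it. Of 11 such pairs, 6 had groups that did not overlap. Each of these 6 used Ebi3 or probe 2 or 3 of Il15ra, so they were not 6 separate results. How often pairs of other probes on the array did not overlap was not measured. With 3 arrays against 3 an exact two-sided permutation test cannot go below 0.1, which adjusted over the 11 pairs was 0.183. Relative to Ebi3, Il27 was higher by 0.57 ± 0.24 and Il12a by 0.57 ± 0.11 (standard error, 3 against 3 arrays, exact permutation p = 0.1 for each). Over quantile normalization, normexp with either normalization and the authors' values, these differences were 0.40 to 0.93 and 0.33 to 0.75. Relative to Il12b, Il12a differed by -0.32 ± 0.29 (exact permutation p = 0.3) and Il23a by -0.27 ± 0.30 (exact permutation p = 0.5), and those groups overlapped. Over the same alternatives these differences were -0.20 to 0.09 and 0.01 to 0.58, so their sign depended on the processing. No difference between the changes of the chains of IL-12 or IL-23 was detectable with 75th percentile scaling. Since Il12b was near the floor, whether the chains changed alike could not be decided.

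IL-15 itself did not pass the test with either probe. Il15 probe 1 was -0.08, 0.19 and 0.09 in the 3 controls, against 0.34, 0.06 and 0.37 with PGC-1α overexpression. Probe 2 was -1.28, -1.08 and -1.02 against -0.95, -1.26 and -0.55. In both probes the second overexpression array lay within the control range, so the groups overlapped. The changes were 0.19 (95% interval -0.15 to 0.53, limma adjusted p = 0.304) and 0.21 (-0.24 to 0.66, adjusted p = 0.388). A rise of 1.03, the change of Il12b with the same scaling, lay outside both intervals. The size of that rise was not firm, since Il12b was near the floor. It changed by 0.62 with normexp and by 0.15 with normexp and quantile normalization together. Within an array the 2 Il15 probes differed in change by -0.02 ± 0.14 (standard error, exact permutation p = 1).

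The 3 probes of Il15ra, the chain that presents IL-15, went in different directions. Probe 1, the brightest, was 4.97, 5.17 and 5.12 in the 3 controls, against 5.41, 5.65 and 5.36 with PGC-1α overexpression. Probe 2 was 1.24, 1.11 and 0.94 against 0.11, 0.38 and 0.09. Probe 3 was 0.11, 0.01 and -0.31 against -1.15, -0.66 and -1.22. In all 3 probes the groups did not overlap, with the overexpression arrays higher in the first and lower in the other 2.

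Il15ra probe 2 fell by 0.90 (standard error 0.15, limma adjusted p = 0.00262) and probe 3 fell by 0.95 (standard error 0.19, adjusted p = 0.00584). Their intensities before scaling were 3812, 3521 and 3631 against 1246, 1115 and 1348 for probe 2, and 1745, 1639 and 1530 against 520, 542 and 546 for probe 3. Both were lower and past the test in all 18 alternatives that held them, with changes from -1.57 to -0.83 for probe 2 and from -1.61 to -0.85 for probe 3. The fall was -0.93 and -0.97 within slide 1 and -0.85 and -0.91 on slide 2.

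Il15ra probe 1 was called higher by a narrow margin, with a change of 0.38 (standard error 0.14, limma adjusted p = 0.0499). With quantile normalization the change was -0.24 (adjusted p = 0.116), with the authors' normalized values it was -0.33 (adjusted p = 0.0545), and without scaling it was -0.28, so its direction rested on the scaling. Leaving out any 1 of the 6 arrays gave a change of 0.29 to 0.44 that did not pass the test. Its intensities were 50806, 58585 and 66036 in the 3 controls, against 49174, 42860 and 52021 with PGC-1α overexpression, among which the groups overlapped. Within an array, the change of probe 1 exceeded that of probe 2 by 1.29 ± 0.13 and that of probe 3 by 1.33 ± 0.19 (standard error, exact permutation p = 0.1), the smallest p that this design allows, while probes 2 and 3 differed by 0.04 ± 0.09 (exact permutation p = 0.8). With quantile normalization the first 2 differences were 0.73 and 0.68, and with the authors' values 0.58 and 0.52, in the same direction but smaller. Probes 1 and 2 carry the accession NM_133836 and probe 3 carries NM_008358. Where on the transcripts the probes lie was not given in the sources used here, and whether they report different transcripts was not tested. Relative to Il15 probe 1, Il15ra was lower by probe 2 and by probe 3, where the difference of Il15 minus Il15ra was 1.09 ± 0.24 and 1.14 ± 0.32 (standard error, exact permutation p = 0.1), and by probe 1 it was -0.19 ± 0.19 (exact permutation p = 0.4), which turned to 0.43 with quantile normalization.

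**Figure D3:**
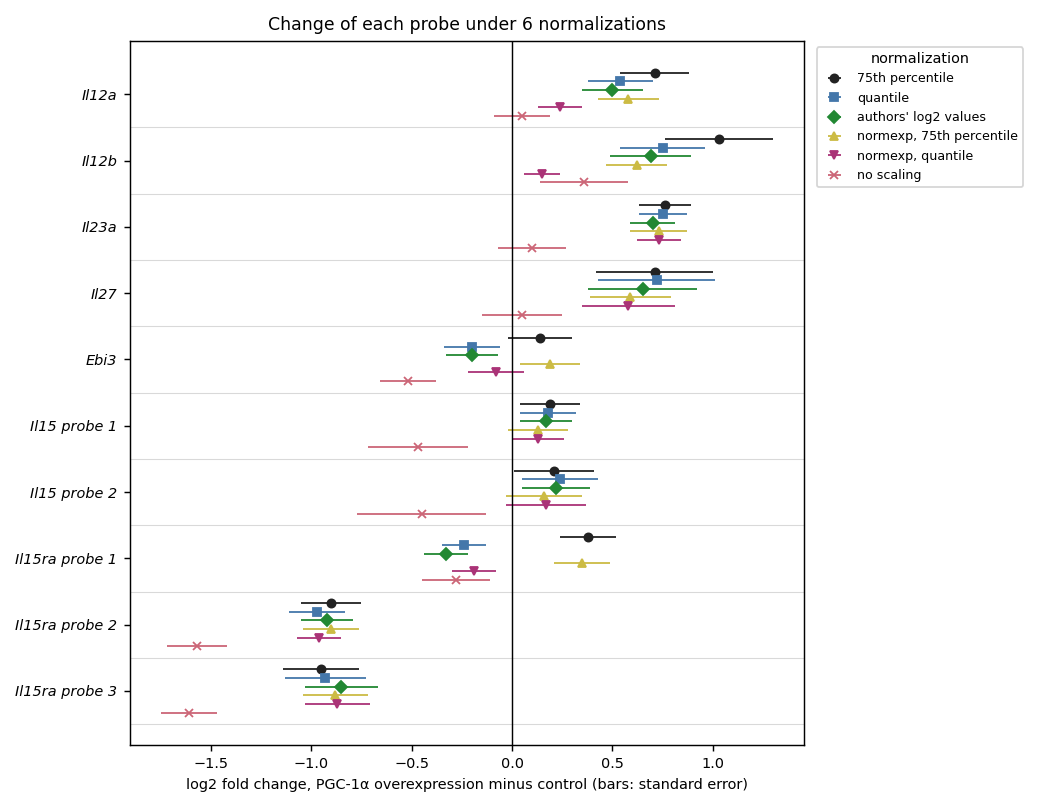
For each probe, the log2 fold change of PGC-1α overexpression minus control is drawn on the x axis with its standard error under 6 normalizations, of which 75th percentile scaling is the one used in the text. Il23a lies between 0.70 and 0.76 in all but the unscaled values, Il15ra probes 2 and 3 stay below 0 in all 6, and Il15ra probe 1 and Ebi3 change sign with quantile normalization.

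The genes around these cytokines were described in 4 lists with 31 genes, of which 25 were tested by their brightest probe. After scaling 4 were higher and 5 lower, where 34.8% and 18.5% of the brightest probes of all 17062 tested genes were. The 25 genes had a median change of 0.08 against 0.23 for all genes. With quantile normalization none of the 25 was called higher and 5 were called lower, where 22.9% and 20.6% of all tested probes were. The calls of Il2rg, Stat5a, Il2 and Il21 as higher were thus lost, while their changes stayed positive at 0.43, 0.55, 0.21 and 0.88.

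Of 7 receptor chains, 6 were tested, and 1 was higher and 1 lower (median -0.14). Il6st, the gp130 chain of the IL-27 receptor, was 0.45, 0.39 and 0.08 in the 3 controls, against -0.91, -1.32 and -0.86 with PGC-1α overexpression. It fell by 1.34 (standard error 0.18, limma adjusted p = 0.00110), and the groups did not overlap. Il2rg, the common gamma chain through which IL-15 signals, was 3.12, 3.30 and 2.92 against 3.94, 4.41 and 3.80. Il2rg rose by 0.94 (limma adjusted p = 0.00602), and with quantile normalization the change was 0.43 (adjusted p = 0.0699). Il12rb1, Il12rb2, Il27ra and Il2rb, the other tested chains for IL-12, IL-23, IL-27 and IL-15, changed by -0.40 to 0.17 and did not pass the test. Il23r, the specific chain of the IL-23 receptor, was not well above background on any array.

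Of 8 Janus kinases and STAT proteins, which carry the signal from these receptors, 6 were tested, with 1 higher and 2 lower (median -0.29). Tyk2, the kinase bound to the IL-12 and IL-23 receptors, was -0.23, -0.57 and -0.69 in the 3 controls, against -1.20, -1.14 and -1.21 with PGC-1α overexpression. It fell by 0.68 (standard error 0.15, limma adjusted p = 0.00828). Stat5b, a STAT that acts downstream of IL-15, fell by 0.53 (adjusted p = 0.0126). The brightest probe of Stat5a rose by 0.84 (adjusted p = 0.0179) with 2 overexpression arrays, since 1 was left out as an outlier, and its 2 probes were called in opposite directions. Jak2, Jak3 and Stat3 did not pass, and Jak1 and Stat4 were not tested.

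Among 11 transcription factors known to act at these cytokine genes, 10 were tested, none was higher and 2 were lower (median 0.12). Irf3, which acts below Toll-like receptors, was 1.5, 1.43 and 1.22 in the 3 controls, against -0.33, -0.37 and -0.09 with PGC-1α overexpression. It fell by 1.64 (standard error 0.15, limma adjusted p = 0.000219), with the groups far apart. Irf8, a factor known to act at the Il12b promoter, was 2.29, 2.23 and 2.08 against 1.29, 1.58 and 1.16 and fell by 0.85 (adjusted p = 0.00367). Both were lower by quantile normalization too, with changes of -1.72 and -1.08. Rel, Rela and Nfkb1, subunits of NF-κB, had changes of 0.33, 0.08 and -0.01 (standard errors 0.33, 0.19 and 0.13) and did not pass. Rel was dim, with means of -4.49 in the controls and -4.16 with overexpression, and was the least precise of these. Irf1, Irf5, Spi1, Batf3 and Nfil3 did not pass either. Cebpb was not tested.

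Of 5 other cytokines that signal through the common gamma chain, 3 were tested and 2 were higher, both from low signals. Il21 was -5.82, -6.05 and -7.19 in the 3 controls, against -5.16, -4.68 and -5.79 with PGC-1α overexpression, with a change of 1.14 (standard error 0.40, limma adjusted p = 0.0412). It was well above background on 2 of 3 control arrays and all 3 overexpression arrays, so it entered the test through the group where it was higher. Il2 rose by 0.41 (adjusted p = 0.0473) from levels of -5.26 to -4.99. Il4 changed by 0.16 and did not pass, and Il7 and Il9 were not tested.

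**Figure D4:**
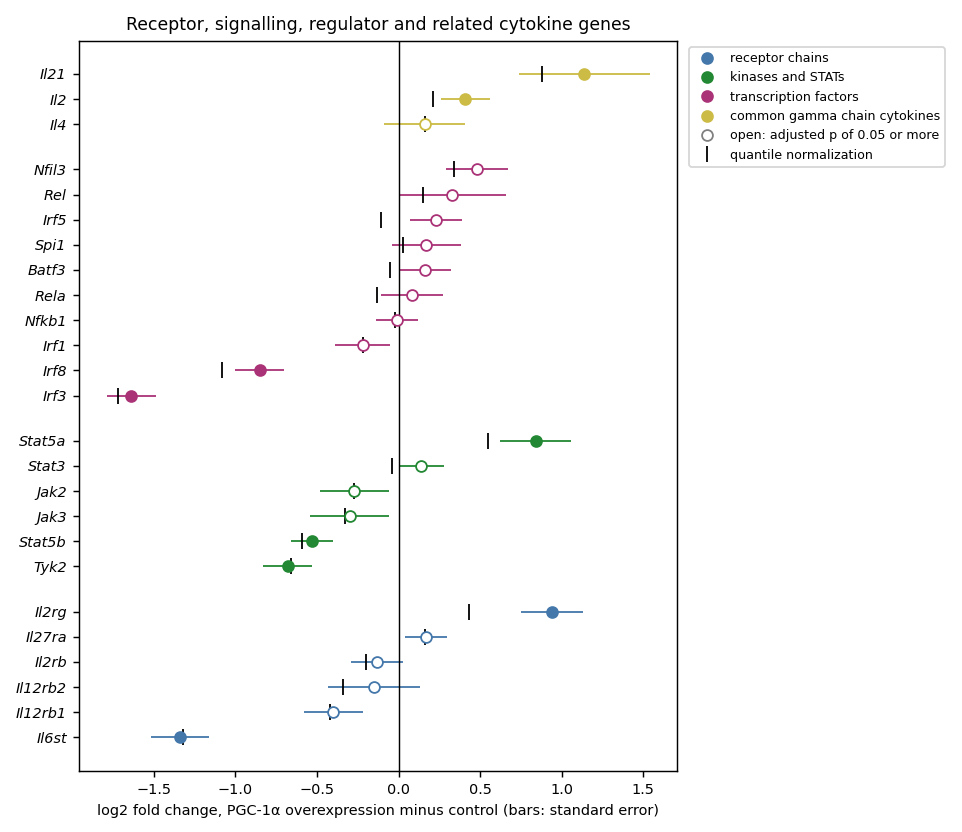
The log2 fold change of each tested gene of the 4 lists is drawn on the x axis with its standard error, filled where the adjusted p was under 0.05, with a black tick at the value after quantile normalization. The filled circles of Il6st, Irf3, Irf8, Tyk2 and Stat5b lie below 0, and the ticks of Il2rg, Stat5a, Il2 and Il21 lie closer to 0 than the circles.

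The labelled cell type was checked by its markers. Of 10 microglial markers, 8 were tested and well above background on all 6 arrays, among them Itgam and Cd68, while P2ry12 and Cx3cr1, which define resting microglia, were not well above background on any. The summed level of the list, in multiples of the 75th percentile intensity, was 69.0 to 71.8 on the control arrays and 99.4 to 115 on the overexpression arrays. Itgam and Cd68, the brightest of the list, made up most of that sum. Itgam, Cd68, Csf1r and Trem2 were higher by 0.46 to 0.75, but with quantile normalization none of these 4 passed the test. Itgam then changed by 0.11 and Cd68 by -0.16. The sum was not computed with quantile normalization. Tmem119, another marker of resting microglia, fell by 2.68 (limma adjusted p = 7.95e-05). Dendritic cells are another source of IL-12, and of their 3 markers Flt3 fell by 1.44 (adjusted p = 0.000306), Zbtb46 changed by 0.02 and Xcr1 was not tested, with a summed level of 0.689 to 0.835 on the control and 0.650 to 0.706 on the overexpression arrays. Of 4 lymphocyte markers 3 were higher (Cd3e, Cd4 and Ncr1) and Cd8a was lower, with a summed level of 0.561 to 0.699 and 0.897 to 1.21. Most of that sum was Cd4, with means of -0.96 and -0.17, while the group means of the others were -3.71 or lower. The astrocyte marker Aqp4, the neuron marker Rbfox3 and the fibroblast marker Col1a1 had changes of 0.87, 1.14 and 0.77 past the test, Gfap changed by 0.39 without passing the test, and Syt1 was not well above background on any array. Col1a1 was bright in both groups, at 3.49 to 3.58 on the control and 4.21 to 4.46 on the overexpression arrays. With quantile normalization Col1a1 changed by 0.22 (adjusted p = 0.142) and Cd3e by 0.64 (adjusted p = 0.0745), and neither passed. Rbfox3 and Ncr1 exceeded background clearly on only 2 of the controls but on each overexpression array, and so entered the test through the group where they were higher. Cd8a exceeded it clearly on all 3 controls but on only 1 overexpression array, and so entered through the controls, where it was higher. The part of these differences in the cytokine levels was not tested.

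Genes whose brightest probe followed each member most closely over the 6 arrays were found by Pearson's r among 16295 genes, as a description. For Il23a they were Acta1 (0.9993), Ier3ip1 and Lsamp, for Il12a Cisd3 (0.9995), Bloc1s1 and Tmem80, and for Il12b Olfr700 (0.9996), Olfr224 and Nfib. For Il27 they were Ifna13 (0.9983), an interferon alpha gene, Cd38 and Gm36556, and for Ebi3 Wnt1 (0.9964), Tmc8 and Proca1. For Il15 they were Dnmt3aos (0.9939), Bicd2 and Usp32, and for the first probe of Il15ra Npvf (0.9959), Gm4861 and Gm15230. Such likeness was common, since 2265 genes had r above 0.95 with Il12a and 2088 with Il23a, against 62 with Il15, and all points shared the same 6 arrays, their scaling and their 2 groups.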

How the data were processed

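RNA of 6 BV2 samples, 3 per group by the labels, was measured on single-colour Agilent arrays. The labels name the dye as Cy3 and the labelling protocol as Cy5, and the files hold the green channel. The deposited intensity values are the processed signals of Agilent Feature Extraction 11.5.1.1, per the file headers, with background already subtracted. The authors also deposited a table of normalized log2 values of 42110 probes, whose column medians were 8.293 to 8.294 and whose scale matched log2 intensity, while its centring was not given in the sources used here; it served as an alternative.

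Here log2 intensity minus the 75th percentile of each array over 59305 spots was used. Outlier spots (149 to 1590 per array) were left out and spots of a probe averaged. A probe was tested if each group had values on 2 or more arrays and if the 3 arrays of 1 group or both were all well above background. The test was two-sided, from limma 3.58.1 (lmFit, then eBayes) run under R 4.3.3, with Benjamini-Hochberg adjustment over 38918 probes at 0.05. Of 56605 probes, 33767 matched 1 gene of the RefSeq table by accession, and 22838 were unmatched and stayed in the fit without a name. The brightest tested probe stood for a gene in lists. The files' array design uses another genome build, so only promoter windows have coordinates. The fit was also run on simulated data with a small set of changed probes, equally many up and down. In these data 20942 of 38918 probes were called, 65.9% of them higher, so that run does not speak for the fit in this setting. The arrays' number limits the precision.

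Some listed genes are not reported here and were left out of the counts. Members and lists were chosen with earlier results of these data known. Every member probe was named, from each of 4 lists the 2 genes with the largest rise and the 2 with the largest fall past the threshold (others named are the rest of a list), and for each member the 3 genes most like it. Alternatives were quantile normalization, the median, normexp (offset 50), other filters, slide or replicate blocks, slide 1 alone, a variance trend, the authors' values, 1 probe per gene and leaving out each array. Unscaled values and differences within arrays were added after seeing the data.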

Additional observations from a re-analysis of the deposited data

How the results depend on the processing

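The falls of Il15ra probes 2 and 3 kept their direction and passed the threshold in all 18 alternatives that held them, and Il23a in all but the unscaled values. The count of members called higher, 4 here, was 1 with normexp and quantile normalization together and 0 without scaling. With normexp and quantile normalization 7462 of all 38918 probes were called higher and 7750 lower. For the unscaled values, the other filters and the blocks the counts over all probes are not given here, so those member counts have no background beside them. The count of members called lower, 2 here, was 0 with the brightest probe per gene, which keeps only probe 1 of Il15ra. Genes of the 4 lists called higher, 4 here, numbered 0 with quantile normalization, with normexp and quantile normalization, with the authors' log2 values and without scaling. They numbered 2 without the filter on dim probes, with only probes well above background on all arrays and with slide 1 alone, and 1 to 3 with 1 array left out, 1 without control replicate 3. Those called lower, 5 here, numbered 14 without scaling. Ebi3 reversed to -0.20 with quantile normalization and with the authors' values, -0.08 with normexp and quantile normalization and -0.52 without scaling. Il15ra probe 1 reversed to -0.24, -0.33, -0.19 and -0.28 in the same order, and Il15 probes 1 and 2 reversed to -0.47 and -0.45 without scaling. The cause was not tested. The share of calls that were higher was 65.9% over all probes and 52.6% with quantile normalization.

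The deviations of samples with the same replicate number correlated at r = -0.207, 0.003 and 0.592. Of these pairs only the third, the arrays of slide 2, deviated together. Pairs of unlike number ranged from -0.516 (control 3 with overexpression 2) to 0.534 (control 1 with overexpression 2). The numbers were therefore not taken to pair the samples. With the replicate block 5 members were called higher and 2 lower, and 4 and 5 genes of the lists, since Il27 passed at an unchanged 0.71 (limma adjusted p = 0.0111). Il27 also passed with normexp (0.59), slide 1 alone, a slide block and a variance trend. Il12b and Il21, each well above background on 2 of 3 control arrays, are limited by their signal over background.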
